A study of Mus musculus with 6 samples.

Results

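Hox genes encode homeodomain transcription factors that set positional identity along the body axis and, in the limb, from shoulder or hip to digits. In the mouse they lie in 4 clusters, HoxA to HoxD, and are numbered by paralogue group from 1 to 13. Low numbers are known for the hindbrain and neck, middle numbers for the trunk, and high numbers for the limb and the tail end of the body. Mesenchymal cells of adult tissues are known to keep part of the pattern laid down in the embryo. The members described here are all protein-coding genes whose symbol is Hox, a cluster letter and a paralogue number. They came to 36 of 18569 protein-coding genes and of 32179 genes listed in all. The mouse annotation (GENCODE M21) holds 39 such genes, and Hoxc12, Hoxd1 and Hoxd12 were not analysed here.

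RNA came from EGFP-positive vascular smooth muscle cells sorted from digested skeletal muscle of male C57BL6J mice of 8 to 24 weeks. One group, iSM-G5C-KO, lost the orphan receptor gene Gprc5c from smooth muscle after tamoxifen, and the other, control mice labelled wild type, received tamoxifen too. All 6 samples carry the source label Gprc5c-floxed and the mTmG reporter, which turns EGFP on where Cre has acted. Each group had 3 libraries, made from 5 ng of total RNA. The Cre driver, the muscles that were taken, their limb and whether a library is 1 mouse or a pool were not found in the labels. This matters for positional genes, since a difference in the muscles dissected and a difference within the cells cannot be told apart. In bulk RNA, fewer cells of a type and less RNA per cell cannot be told apart either.

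Values are the authors' normalised counts, that is reads per gene divided by 1 factor per library and rounded. The libraries held an estimated 1479870 to 2935833 reads, so a value of 1 stands for about 1 read. Control library 3 had 29707 genes above 0, against 20481 to 21179 in the other libraries, and 7733 of its genes were at 1, so single low values there carry little information. Gprc5c itself was at 328, 305 and 360 in KO libraries 1, 2 and 3 and at 428, 532 and 497 in control libraries 1, 2 and 3, which left 68.2% of the control level. Its log2 fold change of -0.55 missed the adjusted threshold of limma (adjusted p = 0.999), and an exact permutation test of the 2 groups gave p = 0.1, the lowest value this design can reach. Myh11 (smooth muscle myosin) was at 3883 to 4940 and Acta2 (smooth muscle actin) at 995 to 1260 over all libraries. Pecam1, the gene of the CD31 antigen used for depletion, was at 35 to 99, and Pdgfra, a fibroblast receptor, at 280 to 505. Of other fibroblast markers, Col3a1 was at 1695 to 3214 and Mfap5 at 42 to 90. Per kilobase of annotated exon over all libraries, Col3a1 reached 259.1 and Acta2 504.3. The 12 smooth muscle markers summed to 12935 to 15701 in KO and 15255 to 15635 in control libraries. The 13 fibroblast markers summed to 6942 to 11384 in KO and 8064 to 12332 in control libraries. Sums of 9 pericyte markers were 11833 to 19263 in KO and 11136 to 16786 in control libraries. Markers listed for endothelial cells, fibroblasts and pericytes were thus read beside those of smooth muscle, and which cells they came from was not tested.

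The 36 genes summed to 1071, 1031 and 1182 normalised counts in KO libraries and to 1013, 1138 and 1109 in control libraries. The groups overlapped, with means of 1094.7 ± 78.2 and 1086.7 ± 65.4 (SD, n = 3 each), a ratio of 1.01. Expression was uneven over the genes. A mean over all libraries of 50 or more was reached by 8 genes, Hoxa7, Hoxa9, Hoxa10, Hoxc4, Hoxc5, Hoxc6, Hoxc10 and Hoxd8. A further 13 lay from 10 to under 50, 5 from 3 to under 10 and 10 under 3.

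Levels of different genes were compared per kilobase of annotated exon. On that scale HoxC held 43.7% and HoxA 37.1% of the summed level, HoxB 9.9% and HoxD 9.4%. HoxC took 41.8% to 44.6% in KO libraries and 41.3% to 46.3% in control libraries, and HoxA 35.9% to 38.5% in KO and 35.4% to 39.3% in control libraries. In both groups the Hox RNA of these sorted samples was thus mainly from HoxA and HoxC, and the part of other cells in it, whose markers are given with their sums further on, was not tested. The genes of paralogue groups 4 to 8 held 55.7% to 58.9% of the level per kilobase in KO libraries and 51.1% to 60.6% in control libraries. Groups 9 to 11 held 32.0% to 36.5% in KO and 30.6% to 40.5% in control libraries, and groups 1 to 3 held 7.3% to 10.3% in KO and 7.9% to 9.0% in control libraries. The 4 listed genes of group 13 held 0.1% to 0.4% in KO libraries and 0.4% to 0.9% in control libraries.

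**Figure D1:**
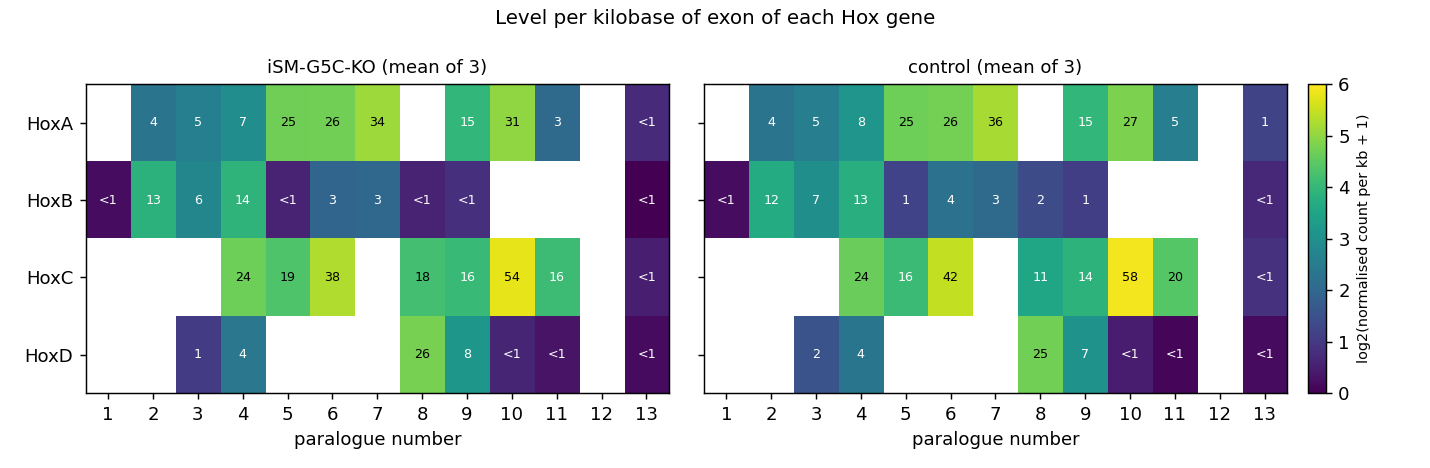
Mean normalised count per kilobase of exon for each Hox gene, by cluster (rows) and paralogue number (columns), in iSM-G5C-KO libraries (left) and control libraries (right), 3 libraries each, with colour on a log2 scale. White cells are positions with no gene shown here. The high cells are in HoxA, HoxC and at Hoxd8, with Hoxc10 at 53.6 in KO and 58.5 in control libraries, while column 13 stays at or below 1.35 in both panels.

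The highest level per kilobase among all members was that of Hoxc10, a gene known from the hindlimb and lumbar region of the mouse embryo (ENSMUSG00000022484, chromosome 15, 102966796 to 102971893, plus strand, GRCm38). It averaged 53.6 per kilobase in KO libraries and 58.5 in control libraries, and its mean over all libraries was above that of 90.0% of protein-coding genes. Its normalised counts were 106, 100 and 101 in KO libraries and 110, 104 and 121 in control libraries. The range was narrow, with the KO libraries at the lower end and overlapping the controls. Hoxc6, a trunk gene, followed with 37.8 per kilobase in KO and 42.5 in control libraries, and Hoxa7, another trunk gene, with 33.8 in KO and 36.4 in control libraries. Hoxa10, known for the lumbar spine and the upper segment of the limb, had 31.3 in KO and 27.3 in control libraries. The order depends on which gene model is used, since with the longest single transcript in place of all exons Hoxc6 ranks 1 at 61.1 and Hoxc10 ranks 2 at 56.0, over all 6 libraries.

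In HoxA (chromosome 6, minus strand) all 11 genes had reads in every library. Hoxa7, the highest by normalised count, was at 106, 80 and 106 in KO libraries and 96, 113 and 105 in control libraries. Those values overlap, and KO library 2 was the lowest of the 6. Per kilobase over all libraries, levels went from 3.94 at Hoxa2, which patterns the pharyngeal arches, through 4.93 at Hoxa3 and 7.21 at Hoxa4 to 24.7 at Hoxa5, known from lung and neck, and 25.7 at Hoxa6. They peaked at Hoxa7, were 14.7 at Hoxa9 and 29.3 at Hoxa10, and dropped to 4.08 at Hoxa11, a gene of the forearm and lower leg segment, and 1.01 at Hoxa13, a gene of hand and foot. With the longest single transcript in place of all exons, Hoxa9 was at 25.5, and Hoxa3 at 11.45 stood above Hoxa4 at 7.21. Hoxa11 shares 35.0% of its exon bases with Hoxa11os on the other strand.

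HoxB (chromosome 11, 96194316 to 96368256, plus strand) was represented by its low-numbered genes. Hoxb2, a hindbrain gene, had the highest normalised counts of the cluster, at 44, 54 and 42 in KO libraries and 47, 40 and 38 in control libraries. Neither group stood above the other. Per kilobase Hoxb2 reached 12.7, Hoxb3 6.35 and Hoxb4, which is also known from blood progenitors, 13.2. The next 5 genes, Hoxb5 to Hoxb9, were at 0.90 to 3.31 per kilobase, although several of their paralogues in HoxA and HoxC were among the highest members. Hoxb1, at the low-numbered end of the cluster, had a value of 1 in KO library 3 and in control library 3 and of 0 in the other 4 libraries. Hoxb13, at the high-numbered end, was at 0 in all KO libraries and in control libraries 1 and 2, and at 4 in control library 3, about 3 reads. No fold is given where both groups lie at or under about 3 reads, as for these genes.

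In HoxC (chromosome 15, 102921103 to 103036852, plus strand) 7 of the 8 listed genes, Hoxc4 to Hoxc11, had means of 10 or more. Hoxc13, known from hair and nail, was the exception with 0 to 2 in KO libraries and 0 to 3 in control libraries. HoxD (chromosome 2, 74668310 to 74748271, plus strand) had 1 strongly expressed gene, Hoxd8. Its normalised counts were 81, 52 and 83 in KO libraries and 86, 73 and 49 in control libraries. KO library 2 and control library 3 were low, and the groups overlapped. Hoxd9, its neighbour, had 18, 16 and 18 in KO libraries and 19, 25 and 3 in control libraries, the last about 2 reads. Beyond it the cluster was almost silent, with Hoxd10 and Hoxd11 at 0 to 2 in every library and Hoxd13 at 1 in KO library 2 and control library 3 and at 0 elsewhere. Hoxd3 and Hoxd4 share 62.3% and 52.3% of their exon bases with other gene models on the same strand, including each other, so their values of 2 to 10 and 9 to 16 are uncertain.

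The level along each cluster therefore broke off at different paralogue numbers. The last gene with a mean of at least 10 was Hoxa10 in HoxA, Hoxb4 in HoxB, Hoxc11 in HoxC and Hoxd9 in HoxD. The genes of group 13, which pattern the hands and feet in HoxA and HoxD, had summed normalised counts of 4, 4 and 1 in KO libraries and 4, 8 and 9 in control libraries, near the value of 3 reads, which is 2.27 to 4.2 by library. At this depth their levels in the groups cannot be distinguished.

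The 250 bases before the RefSeq start site are shown for a pair of genes from HoxA and a pair from HoxD, of which Hoxa5 and Hoxd8 were detected and Hoxa13 and Hoxd13 were near 0. CpG dinucleotides are in capitals. Sequences are from RefSeq on GRCm38.p6, read 5′ to 3′ on the gene's strand. They span chr6:52204588-52204837 (minus), chr6:52260881-52261130 (minus), chr2:74704365-74704614 (plus) and chr2:74667975-74668224 (plus).
Hoxa5: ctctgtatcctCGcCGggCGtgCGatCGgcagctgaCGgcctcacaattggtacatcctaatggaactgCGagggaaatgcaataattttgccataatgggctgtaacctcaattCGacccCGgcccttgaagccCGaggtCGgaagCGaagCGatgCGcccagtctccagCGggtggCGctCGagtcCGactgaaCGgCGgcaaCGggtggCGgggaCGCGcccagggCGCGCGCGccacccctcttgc
Hoxa13: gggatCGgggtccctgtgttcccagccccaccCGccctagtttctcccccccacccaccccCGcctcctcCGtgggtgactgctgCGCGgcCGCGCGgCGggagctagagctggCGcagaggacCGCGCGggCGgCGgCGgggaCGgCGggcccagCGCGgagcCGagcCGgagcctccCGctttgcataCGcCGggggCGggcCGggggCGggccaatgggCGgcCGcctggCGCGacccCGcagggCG
Hoxd8: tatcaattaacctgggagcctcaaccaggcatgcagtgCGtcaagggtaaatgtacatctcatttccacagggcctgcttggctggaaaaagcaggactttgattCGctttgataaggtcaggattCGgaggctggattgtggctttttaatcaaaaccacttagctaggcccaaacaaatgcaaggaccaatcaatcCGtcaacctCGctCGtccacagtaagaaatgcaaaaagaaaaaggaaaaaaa
Hoxd13: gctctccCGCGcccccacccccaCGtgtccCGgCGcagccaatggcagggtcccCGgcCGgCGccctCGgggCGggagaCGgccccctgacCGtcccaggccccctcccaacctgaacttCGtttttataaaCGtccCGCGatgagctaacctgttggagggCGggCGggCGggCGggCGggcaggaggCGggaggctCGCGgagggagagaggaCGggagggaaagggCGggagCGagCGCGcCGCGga

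CpG islands cover much of the Hox clusters, and silent Hox promoters in them are known targets of Polycomb proteins. Hoxa13 and Hoxd13 had 35 and 31 CpG in these 250 bases, and the detected Hoxa5 and Hoxd8 had 28 and 6. Both near-silent genes thus held more CpG than both detected ones in these 4 promoters, by a narrow margin against Hoxa5. Promoters could be matched for 20 of the 36 genes, 22 promoters in all. Their median was 12.5 CpG, against 6 over 32851 promoters of the table. It was 10.5 for 12 promoters of genes with a mean of at least 10 and 20 for 7 promoters of genes with a mean under 3, with ranges of 3 to 28 and 2 to 35 that overlap. TGATNNAT, a core bound by HOX and PBX proteins together, was searched on both strands. It was found in 4 of the 22 Hox promoters (18.2%) and in 7.7% of all, with 0 of the 12 promoters of the higher genes and 3 of the 7 promoters (42.9%) of genes with a mean under 3. TATAAA was found in 4 of 22 (18.2%) and in 12.4% of all.

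**Figure D2:**
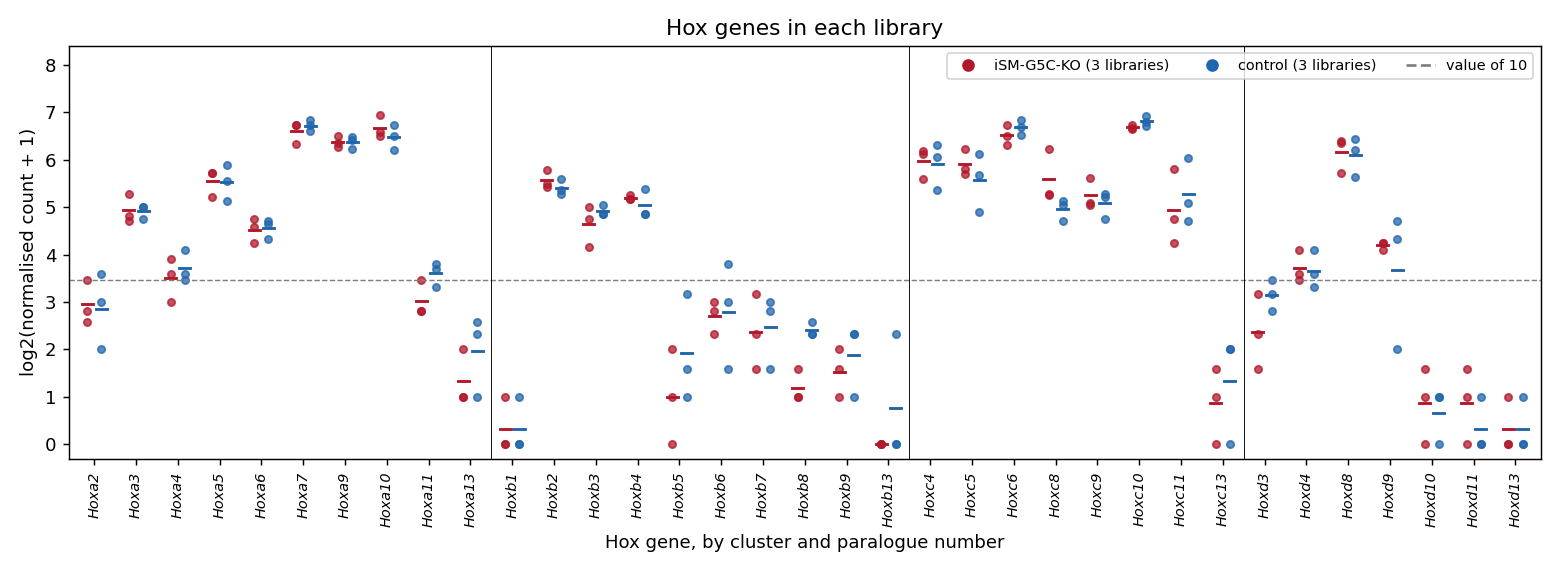
Normalised counts of 35 of the 36 Hox genes on a log2(value + 1) axis, ordered by cluster and paralogue number, with 1 point per library (iSM-G5C-KO left of control at each gene), bars at the group means and a dashed line at a value of 10. The points of the groups overlap for every gene shown except Hoxc8 and the low gene Hoxb8.

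The question for these genes was whether the Hox pattern differed between KO and control libraries. Gprc5c RNA stood at 68.2% of the control level in KO libraries and its protein was not measured here, so a fuller loss was not examined. Of the 36 genes, 21 passed a filter of a mean of at least 10 over all libraries and were tested with limma on log2(value + 1), fitted over all 12735 genes that passed. The difference did not pass an adjusted p of 0.05 for any of the 21, where 0% of all tested genes passed. At an unadjusted p under 0.05 it was 0 of 21 Hox genes, against 1.81% of all tested genes (1.03% higher and 0.777% lower in KO). The median log2 fold change of the 21 genes was 0.05, beside 0.00 over all tested genes, with a range of -0.34 to 0.63. KO means were higher on the log2 scale for 14 of 21 genes (66.7%), against 50.2% of all tested genes. All 3 same-numbered pairs of libraries differed in the same direction for 6 of the 21 (28.6%), beside 29.4% of all.

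Hoxc8, known for the thoracic spinal cord and spine, had the smallest p of the tested members (ENSMUSG00000001657, chromosome 15, 102990607 to 102993821). Its normalised counts were 37, 38 and 74 in KO libraries and 25, 32 and 34 in control libraries. Every KO library lay above every control library, KO library 3 far above the others. The groups failed to overlap in 1 of 21 tested Hox genes (4.76%), against 4.91% of all tested genes (2.69% higher and 2.21% lower in KO). Means were 49.7 ± 21.1 in KO and 30.3 ± 4.73 in control libraries (SD, n = 3 each). The log2 fold change was 0.63 (SE 0.30), with a 95% interval of -0.08 to 1.34, and limma's adjusted p was 0.999. Without KO library 3 the log2 fold change was 0.31. That library also had the fewest estimated reads, 1479870, and the highest sum of skeletal muscle fibre markers, 9542. Ttn alone gave 5386 of that sum. Some other fibre markers were highest there, such as Myh4 at 854, and some were not, such as Ckm (200, against 267 in control library 3). The part of depth or of fibre RNA in the Hoxc8 value was not tested.

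With the replicate number as a block in the fit, Hoxc8 had an unadjusted p of 0.0212, and its adjusted p was 0.381 by limma. It was then the 1 Hox gene of 21 (4.76%) with an unadjusted p under 0.05, a threshold that 10.2% of all tested genes passed in that fit (4.29% higher and 5.96% lower in KO). No Hox gene passed the adjusted threshold with the block, where 0.00785% of all genes did.

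Hoxc5, a trunk gene, was another of the 3 members with a higher KO mean and the smallest p. Hoxc5 was at 51, 55 and 74 in KO libraries and 29, 50 and 69 in control libraries, higher in KO at each number and overlapping between groups. Its log2 fold change was 0.34 (SE 0.32). Without control library 1 that value was 0.01.

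Among members with a lower KO mean, Hoxc6, Hoxb3 and Hoxc10 had the smallest p. Hoxc6 was at 78, 90 and 105 in KO libraries and 91, 103 and 113 in control libraries, a log2 fold change of -0.17 (SE 0.16). Hoxb3, a hindbrain and neck gene, was at 17, 26 and 31 in KO libraries and 28, 32 and 28 in control libraries, and its log2 fold change was -0.28 (SE 0.28). Hoxb3 shares 52.9% of its exon bases with Hoxb3os on the other strand, and the sources used here do not say how the authors' counting treated strand. For Hoxc10 the log2 fold change was -0.12 (SE 0.13). Leaving out 1 library moved the value of Hoxb3 between -0.46 (without KO library 3) and -0.04 (without KO library 1), that of Hoxc6 between -0.28 and -0.07, without those same libraries, and that of Hoxc10 between -0.17 (without control library 2) and -0.06 (without control library 3). Each of these groups overlapped, and limma's adjusted p was 0.999 for each gene.

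The 95% intervals come from the fit without the replicate number as a block, so they do not use the pairing of libraries. They show how much change that fit could have missed. With the block the standard error went from 0.13 to 0.12 for Hoxc10 and from 0.68 to 0.53 for Hoxd9, but from 0.38 to 0.40 for Hoxd4. Hoxc10 had the narrowest 95% interval of the tested members, -0.42 to 0.17 on the log2 scale. For Hoxa9, which acts in the trunk and the upper limb, the interval was -0.34 to 0.35 around a log2 fold change of 0.01, with 81, 90 and 76 in KO libraries and 84, 88 and 74 in control libraries. At the other end Hoxd9 had an interval of -1.06 to 2.10, and its log2 fold change of 0.52 became -0.32 without control library 3. Hoxa10 had 95, 90 and 122 in KO libraries and 90, 105 and 73 in control libraries, with an interval of -0.25 to 0.64. Hoxc9 had 33, 32 and 48 in KO and 26, 38 and 36 in control libraries, with an interval of -0.42 to 0.75. Several tested members were not yet named in this comparison. Hoxa3, Hoxa4, Hoxa5, Hoxa6, Hoxa7, Hoxb2, Hoxb4, Hoxc4, Hoxd4 and Hoxd8 had log2 fold changes from -0.21 to 0.16. Each was smaller than its standard error. Hoxc11 is described further on.

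**Figure D3:**
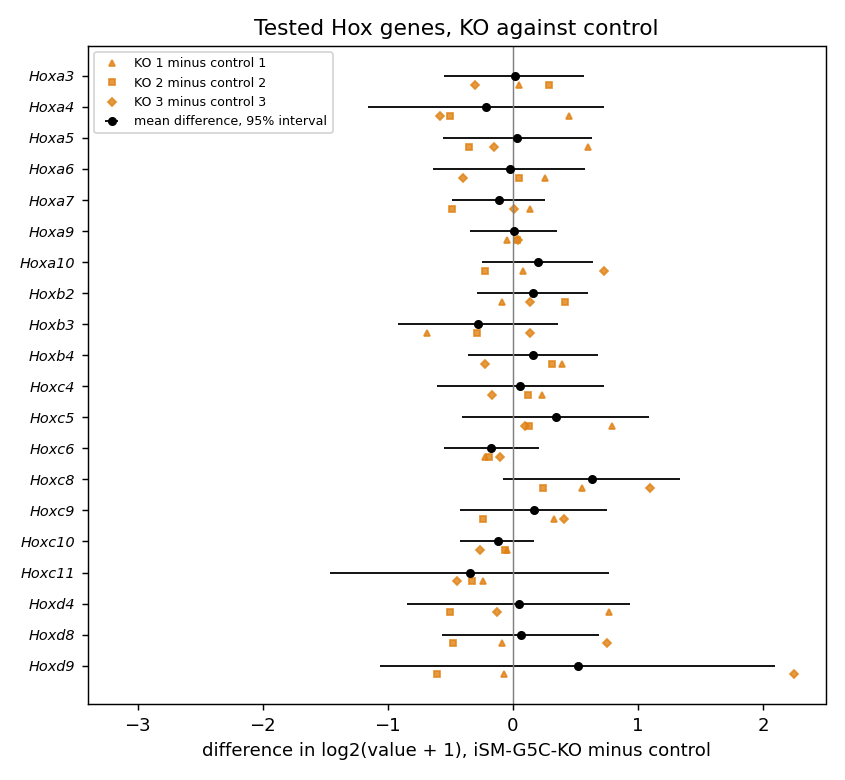
Difference in log2(value + 1), iSM-G5C-KO minus control, for 20 of the 21 tested Hox genes, with black points and lines for the limma estimate and its unadjusted 95% interval and orange symbols for the difference between libraries of the same number. The intervals are from the fit without the block. All 20 intervals include 0, and that of Hoxc8 lies from -0.08 to 1.34.

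Among the 15 genes under the filter, Hoxb8, a trunk gene, had 2, 1 and 1 in KO libraries and 5, 4 and 4 in control libraries, without overlap. Means were 1.33 and 4.33, and KO values of 1 and 2 stand for 1 or 2 reads. Without the filter limma's adjusted p for it was 0.799. The groups failed to overlap in 4.91% of tested genes, and the share among genes under the filter was not counted. Hoxa11 was at 10, 6 and 6 in KO libraries and 13, 9 and 12 in control libraries, and Hoxa13 at 3, 1 and 1 in KO libraries and 4, 5 and 1 in control libraries. Both overlap between the groups. Hoxa2, Hoxb6, Hoxb7 and Hoxd3 ranged from 2 to 13 over all libraries, Hoxb5 from 0 to 8 and Hoxb9 from 1 to 4.

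Summed by cluster, HoxA had 431, 404 and 444 normalised counts in KO libraries and 388, 465 and 409 in control libraries. HoxB had 113, 125 and 129 in KO libraries and 118, 119 and 148 in control libraries. For HoxC the sums were 408, 415 and 489 in KO and 386, 429 and 479 in control libraries. HoxD had 119, 87 and 120 in KO libraries and 121, 125 and 73 in control libraries. The groups overlapped in all 4 clusters, and the KO over control ratio of the means was 1.01 for HoxA, 0.953 for HoxB, 1.01 for HoxC and 1.02 for HoxD. These sums were not tested.

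Within HoxC, levels also varied with the library number. Hoxc11, which in the mouse embryo marks the hindlimb and sacral level, was at 55, 26 and 18 in KO libraries 1, 2 and 3 and at 65, 33 and 25 in control libraries 1, 2 and 3. Both libraries numbered 1 stood well above the other 4, and the KO library was lower than its control at each number. The log2 fold change was -0.34 (SE 0.48, or 0.20 with the replicate number as a block), and limma's adjusted p was 0.999 and with the block 0.625. Without KO library 1 the log2 fold change was -0.78, and without control library 1 it was 0.04. The sum of the low-numbered genes Hoxc4, Hoxc5 and Hoxc6 ran the other way, with 176, 217 and 248 in KO libraries and 160, 219 and 260 in control libraries. The ratio of Hoxc11 to Hoxc5 was 1.08, 0.47 and 0.24 in KO libraries and 2.24, 0.66 and 0.36 in control libraries. Hoxc10, between them, was at 100 to 121 throughout.

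Other measures moved with the library number as well. Estimated reads were highest in the libraries numbered 1, at 2579838 in KO and 2935833 in control. The 13 fibroblast markers summed to 6942 in KO library 1 and 8064 in control library 1, against 11384 and 11058 in KO libraries 2 and 3 and 10651 and 12332 in control libraries 2 and 3. The 9 pericyte markers summed to 11833 and 11136 in the libraries numbered 1, and to 14861 and 19263 in the other KO libraries and 13130 and 16786 in the other control libraries. The part of depth or of other cells in the HoxC pattern was not tested.

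**Figure D4:**
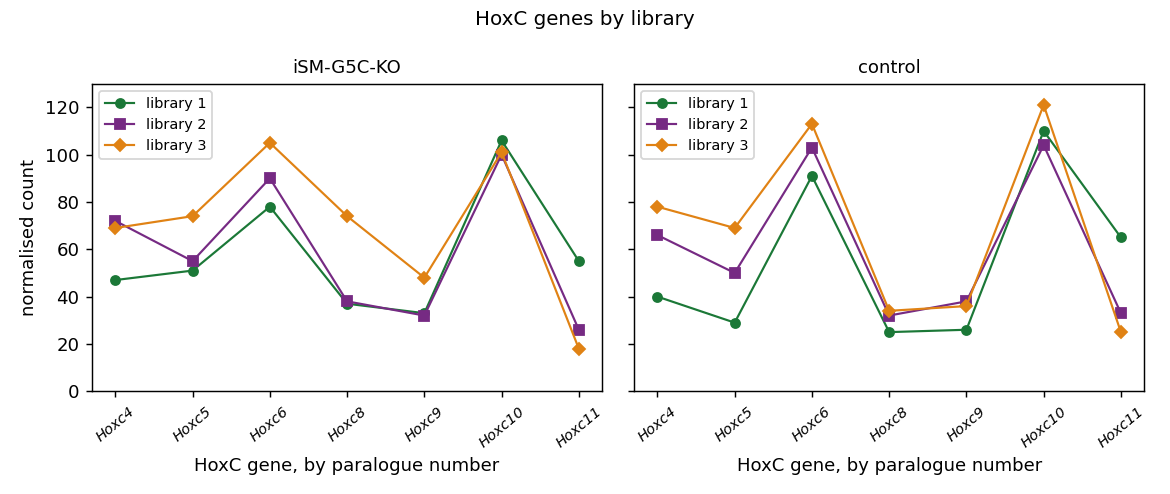
Normalised counts of the HoxC genes from Hoxc4 to Hoxc11 in iSM-G5C-KO (left) and control (right), with 1 line per library. In both panels library 1 is lowest at Hoxc5 and Hoxc6 and highest at Hoxc11 (55 in KO and 65 in control), and the lines come close at Hoxc10.

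Noncoding genes of the clusters were mostly low. Hoxb3os, on the strand opposite Hoxb2 and Hoxb3, was the highest, with 74, 81 and 91 in KO libraries and 51, 78 and 88 in control libraries. It shares 76.2% of its exon bases with those Hox genes, so reads cannot be assigned with certainty unless strand was used. Its log2 fold change was 0.21 (SE 0.22, limma's adjusted p = 0.999), and -0.02 without control library 1. Hotairm1, a noncoding RNA of HoxA, was at 17, 16 and 14 in KO libraries and 13, 16 and 20 in control libraries, with a log2 fold change of -0.04 that lay between -0.18 and 0.11 when 1 library was left out. Hotair, a long noncoding RNA of HoxC, was at 3 to 4 in KO and 3 to 5 in control libraries. The miRNA gene Mir196b lies wholly within exons of Hoxa9 and had values of 0 to 2. Mir10b of HoxD had 1 in control library 3 and 0 elsewhere. Total RNA libraries of this kind are not made to capture mature miRNAs.

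HOX proteins bind DNA together with TALE homeodomain cofactors of the PBX, MEIS and PKNOX families. Of 9 cofactor genes 8 were tested, and 0 passed in either direction without or with the block, with 2 log2 fold changes above 0 and 6 below and a median log2 fold change of -0.10. Meis1 averaged 84.3 ± 11.4 in KO and 96.3 ± 26.8 in control libraries, Meis2 71.0 ± 21.1 in KO and 75.3 ± 14.2 in control libraries, and Pknox2 48.3 ± 7.57 in KO and 56.0 ± 14.4 in control libraries (SD, n = 3 each). Their log2 fold changes were -0.16 for Meis1, -0.11 for Meis2 and -0.19 for Pknox2, each with an adjusted p of 0.999 by limma. Leaving out 1 library moved them between -0.40 and 0.00 for Meis1, -0.31 and 0.13 for Meis2, and -0.34 and 0.00 for Pknox2.

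Trithorax complexes keep Hox genes on and Polycomb complexes keep them off. All 12 trithorax and MLL complex genes were tested and 0 passed, with 4 log2 fold changes above 0 and 8 below and a median log2 fold change of -0.04. Kmt2a, whose product MLL maintains Hox expression, was at 1234, 968 and 987 in KO libraries and 1211, 991 and 1143 in control libraries. Kdm6b, a demethylase of the Polycomb mark, was at 1066, 572 and 585 in KO libraries and 1432, 632 and 702 in control libraries, highest in the libraries numbered 1. Its log2 fold change was -0.28 (SE 0.36), and 0.09 without control library 1. In the same list Kdm6a averaged 194.0 ± 31.5 in KO and 173.3 ± 17.0 in control libraries, Dpy30 54.0 ± 7.21 in KO and 47.3 ± 7.64 in control libraries, and Kmt2c 1179.7 ± 209.6 in KO and 1258.3 ± 153.9 in control libraries (SD, n = 3 each). Of 23 Polycomb genes all were tested and 0 passed, with 10 log2 fold changes above 0 and 13 below and a median of -0.01. Cbx6, a reader of the Polycomb mark, averaged 447.7 ± 69.8 in KO and 563.3 ± 108.8 in control libraries, and the related Cbx2 19.0 ± 8.19 in KO and 10.3 ± 4.93 in control libraries (SD, n = 3 each). Phf19, a Polycomb-like protein gene, averaged 16.7 ± 16.0 in KO and 28.3 ± 26.6 in control libraries. For the genes named from both lists limma's adjusted p was 0.999 without the block and 0.277 or more with it.

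Of 7 genes of limb type and limb field 1, Tbx5, passed the filter. T-box and Pitx genes separate forelimb from hindlimb, with Tbx5 known from the forelimb and Tbx4 and Pitx1 from the hindlimb. Tbx5 was at 37, 14 and 15 in KO libraries and 51, 47 and 29 in control libraries. KO library 1 lay above control library 3, so the groups overlapped, and the KO library was lower at each number. Means were 22.0 ± 13 in KO and 42.3 ± 11.7 in control libraries (SD, n = 3 each). The log2 fold change was -1.01 (SE 0.41, unadjusted 95% interval -1.97 to -0.05), and it did not pass limma's test (adjusted p = 0.999, and 0.266 with the replicate number as a block). An unadjusted p under 0.05 in limma without the block was reached by 1.81% of all tested genes. Without 1 library the value lay between -1.44 and -0.77. Tbx4 was at 3, 2 and 3 in KO libraries and 6, 12 and 8 in control libraries, without overlap, and its mean was under the filter. The groups failed to overlap in 4.91% of tested genes, and the share among genes under the filter was not counted. Pitx1 was at 2, 6 and 6 in KO libraries and 0, 3 and 3 in control libraries. A value of 1 to 6 is within a few reads of 0. Transcripts of genes of both limb types were thus read in the same libraries, from values of at most 51.

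**Figure D5:**
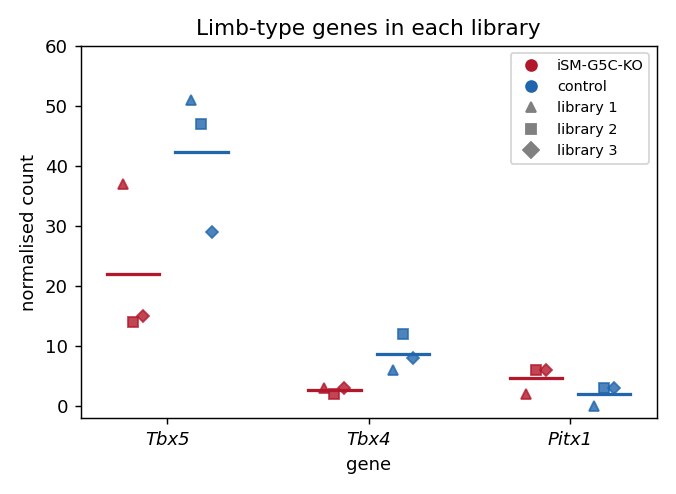
Normalised counts of Tbx5, Tbx4 and Pitx1 in each library, with iSM-G5C-KO left of control, symbols for the library number and bars for the means. Tbx5 averages 22.0 in KO and 42.3 in control libraries with overlapping points, while Tbx4 and Pitx1 stay at or below 12.

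Other patterning genes of limb mesenchyme were also read in these cells. Of 26 in the list 2 were not analysed here, 18 were tested and 0 passed without or with the block, with 8 log2 fold changes above 0 and 10 below and a median log2 fold change of -0.05. Tbx2, a T-box repressor, averaged 650.3 ± 21.1 in KO and 733.7 ± 52.0 in control libraries, and Tbx18, which marks mural cells, 159.3 ± 22.0 in KO and 125.3 ± 26.1 in control libraries (SD, n = 3 each). Msx1, a homeobox gene of the limb bud, averaged 123.0 ± 30.5 in KO and 149.3 ± 27.8 in control libraries, and Alx4, a gene of the anterior limb bud, 20.3 ± 2.52 in KO and 27.7 ± 6.11 in control libraries. The adjusted p from limma was 0.999 for each of these 4 genes. Per kilobase over all libraries Tbx2 reached 190.8, Meox2 138.0 and Prrx1 51.8, beside 56.0 for Hoxc10. The organiser signal Shh had 1 in control library 3 and 0 elsewhere. Neighbours and relatives of the clusters were at the floor, with Evx2 at 1, 3 and 1 in KO libraries and 0 in all control libraries, and Cdx1, Cdx2 and Cdx4 at 0 or 1 outside control library 3.

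Marker lists of this and other cell types were summed, and their log2 fold changes, which are differences of mean log2 values, were counted by sign. The 15 skeletal muscle fibre genes summed to 2394 to 9542 in KO libraries and 1714 to 4113 in control libraries, with 15 of 15 log2 fold changes above 0. Within these sums Ttn was at 660, 1638 and 5386 in KO libraries and 422, 442 and 868 in control libraries. The 14 endothelial genes summed to 1003 to 2006 in KO and 950 to 1535 in control libraries, with 14 of 14 log2 fold changes above 0, and the 12 smooth muscle genes to 12935 to 15701 in KO and 15255 to 15635 in control libraries, with 12 of 12 log2 fold changes below 0, that of Acta2 rounding to 0.00. Fibroblast markers summed to 6942 to 11384 in KO and 8064 to 12332 in control libraries, with 11 of 13 log2 fold changes below 0, and 0 members of these lists passed limma's test. Satellite cell and myoblast markers summed to 1289 to 1810 in KO and 1380 to 1687 in control libraries. Most of each sum was from Itga7, at 1089 to 1585 in KO and 1155 to 1492 in control libraries. Pax7, the satellite cell factor, was at 42, 21 and 49 in KO libraries and 42, 23 and 33 in control libraries. Pericyte markers summed to 11833 to 19263 in KO and 11136 to 16786 in control libraries, with 9 of 9 log2 fold changes above 0. Leukocyte markers summed to 124 to 571 in KO and 119 to 489 in control libraries, and Schwann cell markers to 563 to 692 in KO and 540 to 687 in control libraries. No list had a marker at 0 in all libraries. Their part in the Hox values was not tested.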

How the data were processed

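Smooth muscle cells depleted of CD31, CD45 and Ter119 positive cells were sorted for EGFP, and libraries were made with a stranded low-input total RNA kit, per the labels' protocols. The deposited values are treated as a score, since the authors scaled the gene counts of each library and then rounded them, which the spacing of the low values and the word norm in the deposit show. Tools listed in the submitters' processing notes, without roles, are DESeq2 1.18.1, featureCounts 1.6.5, STAR 2.6.1d and Trimmomatic 0.39, with the builds mm10 and GRCm38.p5. Whether counting used strand or duplicates were removed was not stated.

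The worth of 1 read per library was estimated by a grid search on the frequency of each whole number (0.755 to 1.399). Since rounding merges read numbers in 4 libraries, no count test was run. limma 3.58.1 (R 4.3.3) was fitted with an intensity trend, 2-sided, on log2(value + 1) of 12735 genes with a mean of at least 10, with Benjamini-Hochberg adjustment at 0.05. Fold changes on this scale understate the change of low genes. The fit was also run on simulated data with independent libraries and no effect of the library number. That run says nothing about the pairing of libraries. Groups came from the sample descriptions. The sources do not say that libraries of a group are separate animals, so the spread behind each p-value may be technical.

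Exon lengths are from GENCODE M21 (GRCm38), whose span equals the deposited one for 24 of 36 Hox genes, so levels per kilobase are approximate. Deviations of same-numbered libraries from their group means had correlations across genes of 0.59 (number 1), 0.31 (number 2) and 0.44 (number 3), with at most 0.16 between other numbers, so numbers were taken to pair libraries. What a number stands for is not in the labels, so this pairing comes from the data.

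The Hox genes and the lists were chosen with earlier results of these data known. Values in all libraries are given for members with a mean of at least 100, for those with a mean of at least 10 and no overlap, for the 3 smallest p in each direction and for the top gene of each cluster. Paralogue groups 9 to 13 and Tbx4, Tbx5 and Pitx1 are named whatever their value, and in each companion list those passing or up to 4 with the smallest p. Other genes named (such as Hoxb8, Hoxc4, Kmt2a, Meox2, Prrx1) were chosen after their values were seen. Values of 1 Hox gene, 1 TALE cofactor and 1 Polycomb gene that the rule names are not reported here, though sums, counts and medians include them. Promoters are printed because no protein sequences were used here, and the 4 were chosen after levels were seen. Alternatives were other pseudocounts, filters, scalings, variance priors, sample weights, the block and leaving out libraries.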

Additional observations from a re-analysis of the deposited data

How the results depend on the processing

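No Hox gene passed an adjusted p of 0.05 with limma in the reported fit or in any of 18 alternatives, and the smallest adjusted p of a Hox gene was 0.279 (Hoxa7, sample quality weights). The count of Hox genes with an unadjusted p under 0.05 was 0. It was 1 without the filter on low values (Hoxb8), 1 with sample quality weights (Hoxa7), 1 with the replicate block (Hoxc8), and 1 with the block and number 1 or number 2 left out (Hoxc8 each time). It ranged from 0 to 1 over fits that left out 1 library, with 1 (Hoxc8) without KO library 1. Over all genes 0 passed, against 2 with sample quality weights, 1 with the replicate block, 61 with the block and number 1 left out and 1 with the block and number 2 left out. The cause was not tested. Gprc5c was lower in KO throughout and never passed. The sign of the log2 fold change of uncalled Hox genes turned for up to 7 of 21 genes in an alternative (sample quality weights, and leaving out KO library 3). Hoxc8 stayed higher in KO throughout, from 0.31 to 0.82. Upper-quartile and median-of-ratios scaling turned 0 signs. Without the filter the median log2 fold change of all genes was -0.14, beside 0.00 with it. Depth limits the low members: the 15 untested genes average under 10, and those under 3 rest on a few reads.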
